A study of Mus musculus with 6 samples.

Results

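The tissue inhibitors of metalloproteinases (TIMPs) and the membrane-anchored inhibitor Reck were examined in the RPE-choroid, that is, the retinal pigment epithelium with the vascular choroid beneath it. The members were taken by name, as the 4 mouse Timp genes and Reck, and all 5 were among the 15663 genes listed for every library. All 5 passed the filter on low counts, which kept 13454 genes. The RNA came from C57BL/6 mice (males of the C57BL/6J line, 8 to 10 weeks old), with 3 untreated control mice and 3 mice with subretinal fibrosis (SRF). SRF was induced with 4 laser burns per eye, each lesion was burned again 10 days later, and the tissue was collected 20 days after that second laser. The whole RPE-choroid was extracted, so the lesions were only a portion of each sample, and in such bulk RNA fewer cells of a type and less RNA per cell cannot be told apart.

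TIMPs are secreted proteins that block matrix metalloproteinases (MMPs), and some of the related ADAM and ADAMTS proteases, by wedging their amino-terminal end into the catalytic site, where the first cysteine binds the zinc ion. Timp3 differs from the others in that it stays bound to the extracellular matrix, and it is a known constituent of Bruch's membrane, made largely by the RPE. Mutations of its human counterpart cause Sorsby fundus dystrophy, an inherited disease with choroidal neovascularization. Timp2 also has a second role, since it bridges the membrane protease MMP14 and pro-MMP2 on the cell surface and so takes part in the activation of MMP2. Reck is not a TIMP by sequence. It is held in the membrane by a lipid anchor, restrains several metalloproteinases, and serves with the receptor Adgra2 in Wnt7 signalling of endothelial cells.

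The stretch of coding sequence that carries the inhibitory start of each TIMP is shown to compare the 4 genes at the site by which they act on proteases. Each stretch begins at the first cysteine-any-cysteine codon triplet in frame, and the 2 cysteine codons are in capitals. The sequences were read from the GENCODE M21 transcripts on GRCm38, 5′ to 3′ on the coding strand.
Timp1: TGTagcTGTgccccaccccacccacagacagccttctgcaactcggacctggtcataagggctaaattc
Timp2: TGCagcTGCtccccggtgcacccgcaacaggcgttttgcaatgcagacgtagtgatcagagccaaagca
Timp3: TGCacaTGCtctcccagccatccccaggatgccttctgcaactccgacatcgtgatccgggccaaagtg
Timp4: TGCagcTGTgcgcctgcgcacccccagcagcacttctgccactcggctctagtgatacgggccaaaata
The Timp2 stretch lies in the coding part of exon 1 (chr11:118354961-118355012) and exon 2 (chr11:118320193-118320209), on the reverse strand. That of Timp1 lies in exon 2 (chrX:20871111-20871162) and exon 3 (chrX:20872777-20872793), on the forward strand. In all 4 genes the exon boundary falls after base 52 of the 69 bases. Any pair of the 4 stretches matched at 43 to 49 of 69 positions, and over the whole coding sequence the pairs were 49.0% to 59.9% identical. No run of 31 bases was shared between transcripts of different TIMPs, so reads of that length without mismatch belong to 1 of them.

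The levels of the members differed widely (in deposited FPKM, fragment counts scaled by transcript length and by library size, so that different genes can be compared). Timp3 was the most abundant in every library and ranked 33 of all listed genes by mean FPKM. Timp2 followed at rank 328, Reck at 5643, Timp1 at 6050 and Timp4 at 11694. These ranks are over all 6 libraries. Reck was above Timp1 in each control mouse (means of 12.2 and 7.77 FPKM), whereas in SRF mice the mean of Timp1 (15 FPKM) was above that of Reck (13.3 FPKM) and their values overlapped. Timp4 was below every other member in every library.

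Timp2 was 2.36-fold higher and Timp1 1.85-fold higher in SRF mice, with all 3 SRF libraries above all 3 control libraries. Timp4 was at 0.6 times its control level, and in counts scaled to library size its SRF libraries all lay below its control libraries. Neither Timp1 nor Timp4 passed either test, and the values of Timp3 and Reck overlapped between the groups. Timp2 was the 1 member that rose by DESeq2, and by edgeR's quasi-likelihood test none passed.

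**Figure D1:**
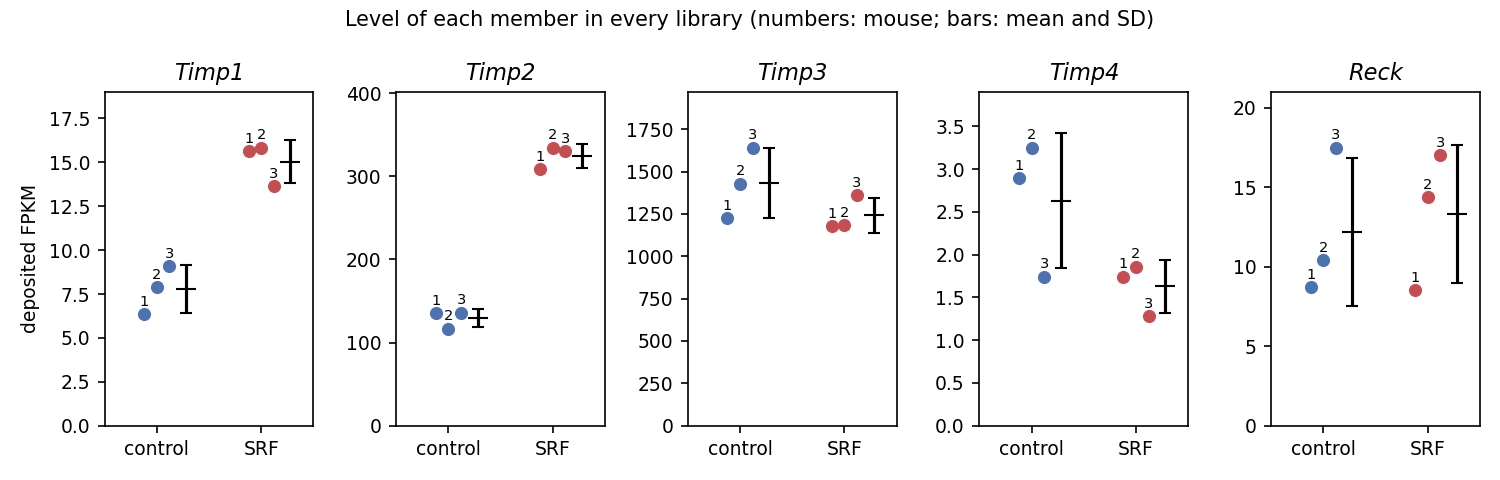
FPKM of each member (vertical axis, linear from 0, own scale per panel) in the 3 control and 3 SRF libraries, each point being 1 mouse with its number and the bar beside them the mean and SD. The SRF points of Timp1 and Timp2 lie above all their control points, whereas the groups overlap for Timp3, Timp4 and Reck on this scale.

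Timp2 (ENSMUSG00000017466, GRCm38 chr11:118301069-118355740, reverse strand) was at 135.40, 116.68 and 135.93 FPKM in control mice 1, 2 and 3. In SRF mice 1, 2 and 3 it was at 308.49, 334.45 and 330.49 FPKM. The values were close to each other within each group and far apart between them. As CPM (counts scaled to a common library size with TMM factors), the means were 488 ± 38.4 (SD, n = 3) in control and 1153 ± 83.5 (SD, n = 3) in SRF libraries. The log2 fold change was 1.24 (standard error 0.12, 95% interval 0.96 to 1.52), with a Benjamini-Hochberg adjusted p-value of 0.106 in the edgeR quasi-likelihood test. DESeq2 gave the same log2 fold change with an adjusted p-value of 3.7e-20 over the same genes. Timp2 had the second smallest p-value of all tested genes with either tool (rank 2 of 13454), and 0.624% of tested genes had a larger log2 fold change in either direction. It lay on 6839 to 21584 counts per library, so counting error was small against the spread between mice.

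Genes were called where the adjusted p-value was below 0.05 and the log2 fold change reached 0.5 in either direction. edgeR called 0 of the 13454 tested genes (0%), among them 0 of the 5 members, while 943 genes (7.01%) had an unadjusted p-value under 0.05 and DESeq2 called 153 (1.14%). Of the members, 2 of 5 were higher in SRF at an unadjusted p-value under 0.05 by edgeR (Timp1 and Timp2, against 4.16% of tested genes) and 1 of 5 was lower (Timp4, against 2.85%). DESeq2 called 1 of 5 higher, against 0.803% of tested genes, and 0 of 5 lower, against 0.334%. In CPM the SRF libraries lay above the control libraries without overlap for 2 of 5 members and 6.71% of tested genes, and below them for 1 of 5 members and 6.43%, together 13.1%. The median log2 fold change was 0.08 over the 5 members and 0.00 over all tested genes.

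Timp1 (ENSMUSG00000001131, chrX:20870166-20874735, forward strand), the TIMP best known as inducible by cytokines and growth factors, was at 6.36, 7.89 and 9.07 FPKM in control mice 1, 2 and 3. In SRF mice 1, 2 and 3 it was at 15.62, 15.84 and 13.63 FPKM. The lowest SRF value was above the highest control value. In CPM the means were 6.83 ± 1.24 and 12.6 ± 0.962 (SD, n = 3 each), a log2 fold change of 0.89 (standard error 0.21, 95% interval 0.40 to 1.37). The adjusted p-value was 0.359 by edgeR's quasi-likelihood test and 0.0633 by DESeq2, so neither tool called it. It rested on 74 to 246 counts per library.

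**Figure D2:**
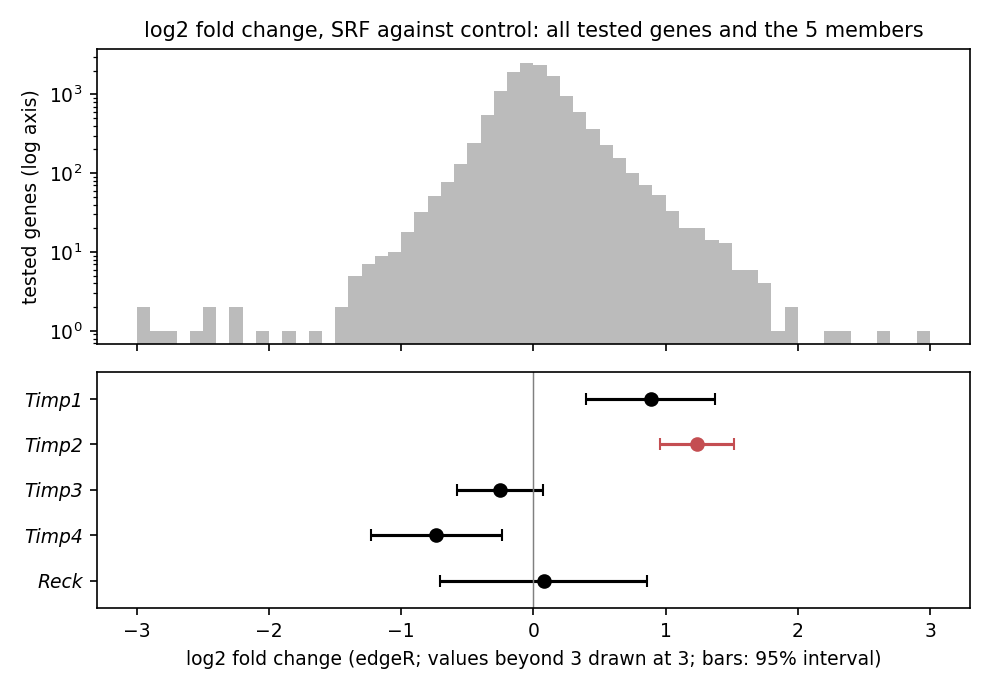
Log2 fold changes, SRF against control, from edgeR: above, the number of tested genes in steps of 0.1 (log axis, values beyond 3 drawn at the ends), and below, the 5 members with their 95% intervals. Timp2, drawn in red as the member called by DESeq2, has an interval of 0.96 to 1.52, and the intervals of Timp3 and Reck cross 0.

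Timp3 (ENSMUSG00000020044, chr10:86300372-86349506, forward strand) was at 1225.51, 1429.34 and 1642.05 FPKM in control mice 1, 2 and 3. It was at 1179.02, 1184.25 and 1360.83 FPKM in SRF mice 1, 2 and 3. Control mice 2 and 3 were above all SRF mice, but control mouse 1 lay within the SRF values. The CPM means were 6894 ± 995 and 5778 ± 519 (SD, n = 3 each), with a log2 fold change of -0.25 (95% interval -0.58 to 0.07) and an adjusted p-value of 0.829 by edgeR's quasi-likelihood test. The summed FPKM of 15 RPE markers ran from 22638 to 27800 in control and from 16467 to 23802 in SRF libraries, with 12 of the 15 lower in SRF and 3 of them called by DESeq2. The part of the RPE markers in the Timp3 values was not tested.

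Timp4 (ENSMUSG00000030317, chr6:115241892-115252205, reverse strand), a TIMP with a narrow tissue range that is best known from heart, brain and fat, had 151, 217 and 215 counts in control mice 1, 2 and 3. The SRF mice 1, 2 and 3 had 121, 126 and 100 counts. In CPM every SRF library (5.6 to 7.02) was below every control library (8.97 to 11.8), with means of 10.7 ± 1.49 and 6.39 ± 0.72 (SD, n = 3 each). The log2 fold change was -0.74 (standard error 0.21, 95% interval -1.23 to -0.24), with an adjusted p-value of 0.434 by edgeR's quasi-likelihood test and 0.188 by DESeq2. In FPKM the groups overlapped, since control mouse 3 was at 1.74 and SRF mouse 2 at 1.86. The deposited counts and FPKM of Timp4 imply a transcript length of 3536 to 5073 nt depending on the library. This is between its 2 annotated transcripts of 945 and 5496 nt. For Timp3 the implied length was 4718 to 4724 nt throughout. For Timp2 the implied length was 3468 nt in SRF mouse 1 and 3651 to 3710 nt in the other libraries.

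Reck (ENSMUSG00000028476, chr4:43875530-43944806, forward strand) was at 8.71, 10.40 and 17.49 FPKM in control mice 1, 2 and 3. It was at 8.54, 14.38 and 17.01 FPKM in SRF mice 1, 2 and 3. Its values covered the same range in both groups. The log2 fold change was 0.08 with a 95% interval of -0.71 to 0.86 (adjusted p-value of 1 by edgeR's quasi-likelihood test). A difference of either sign within that interval therefore remains possible. Its direction reversed when control mouse 1, control mouse 2 or SRF mouse 3 was left out. The summed FPKM of 12 fibroblast markers was also lowest in mouse 1 and highest in mouse 3 of each group, at 1961, 2442 and 4552 in control and 2975, 3932 and 5209 in SRF mice. The part of the fibroblast markers in the Reck values was not tested.

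The make-up of the TIMP pool differed between the groups, while its size differed by less than the spread between mice. The summed FPKM of the 4 TIMPs was 1370, 1557 and 1789 in control mice and 1505, 1536 and 1706 in SRF mice (exact permutation test, two-sided, p = 1). Timp2 contributed 9.88%, 7.49% and 7.6% of this sum in control mice 1, 2 and 3 and 20.5%, 21.8% and 19.4% in SRF mice 1, 2 and 3. Every SRF library was above every control library. The two-sided exact permutation p was 0.1, below which 3 mice per group cannot go. The share of Timp3 was 91% ± 1.36 (SD, n = 3) in control and 78.4% ± 1.34 (SD, n = 3) in SRF libraries, again without overlap (exact permutation p = 0.1). Timp1 and Timp4 made up the small remainder. Within a library, the log2 ratio of Timp2 to Timp3 FPKM was -3.46 ± 0.25 in control and -1.93 ± 0.11 in SRF mice (SD, n = 3 each), a difference of 1.53 (exact permutation p = 0.1).

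**Figure D3:**
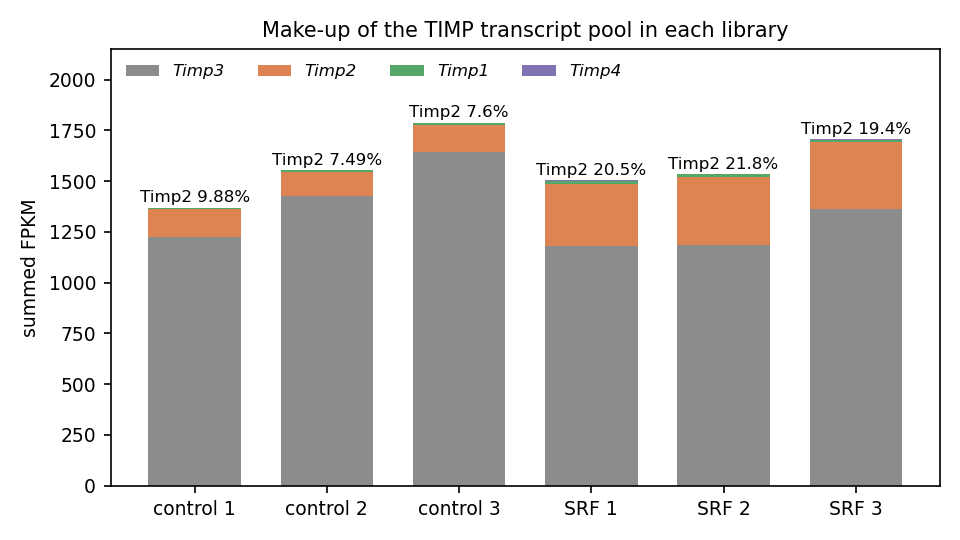
Summed FPKM of the 4 TIMPs (vertical axis, from 0) in each of the 6 libraries, stacked by gene, with the share of Timp2 printed above each bar. Timp3 is the largest part of every bar, and the Timp2 share is 7.49% to 9.88% in control and 19.4% to 21.8% in SRF libraries.

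Among the proteases that TIMPs restrain, most genes had fitted log2 fold changes above 0, but few passed a test. Of 17 secreted MMPs, 11 were listed and 7 tested, all 7 with a fitted log2 fold change above 0 and a median of 0.42. DESeq2 called 1 of them, Mmp12, the macrophage elastase, at 9.89 ± 2.43 FPKM in control and 57.8 ± 4.54 FPKM in SRF mice (SD, n = 3 each). Mmp2, the gelatinase whose activation involves Timp2, had a log2 fold change of 0.37 (standard error 0.32), and Mmp9, the other gelatinase, one of 0.01 (standard error 0.69). Of 6 membrane MMPs, 4 were tested and 3 were higher, with a median of 0.46. Mmp14, the membrane partner of Timp2, was at 43 ± 7.4 FPKM in control and 71.5 ± 10.8 FPKM in SRF mice, with an adjusted p-value of 0.41 by edgeR and 0.0498 by DESeq2, which called it close to the threshold.

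Inhibitors and proteases were then set against each other within each library. The log2 ratio of Timp2 to Mmp14 FPKM was 1.60 ± 0.29 in control and 2.19 ± 0.18 in SRF mice (SD, n = 3 each), without overlap (exact permutation p = 0.1), so Timp2 was further above Mmp14 in SRF. The log2 ratio of Mmp12 to the summed TIMPs was -7.34 ± 0.19 in control and -4.78 ± 0.05 in SRF mice, a difference of 2.56 (exact permutation p = 0.1). For all listed MMPs together this ratio was -3.50, -3.11 and -2.05 in control and -2.42, -2.06 and -1.62 in SRF mice, with overlap (exact permutation p = 0.3). The MMP sum leaned on Mmp3, the most abundant MMP in every library but control mouse 1. Mmp3 was at 27.25, 63.23 and 281.74 FPKM in control mice and 82.28, 126.36 and 336.72 FPKM in SRF mice 1, 2 and 3. All these ratios are of transcripts, not of active enzyme to inhibitor.

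Of the 9 ADAM proteases, all tested, 6 were higher and 3 lower, with a median log2 fold change of 0.22. Adam8, a protease of myeloid cells, was called by DESeq2 (log2 fold change 1.35, adjusted p-value 0.0159) and not by edgeR (0.298). The shedding proteases Adam10 and Adam17, which Timp3 is known to inhibit, had log2 fold changes of -0.12 (standard error 0.12) and 0.21 (standard error 0.19). Of 19 ADAMTS proteases 11 were tested, 8 higher and 3 lower with a median of 0.34, and neither tool called any, with 1 at an unadjusted p-value under 0.05 by edgeR (Adamts6, named after its value was seen). The aggrecanases Adamts4 and Adamts5, also targets of Timp3, had log2 fold changes of 0.62 (standard error 0.34) and 0.10 (standard error 0.33).

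The 10 known binding partners of TIMPs on the cell surface or in the matrix were all tested, and 0 were called by edgeR or DESeq2, with 0 at an unadjusted p-value under 0.05 by edgeR. Their median log2 fold change was 0.06. Cd63, the tetraspanin through which Timp1 signals, was among the abundant transcripts at 1559 ± 117 FPKM in control and 1506 ± 214 FPKM in SRF mice (SD, n = 3 each). Lrp1, an endocytic receptor that takes up TIMPs, had a log2 fold change of 0.10, Itgb1 of 0.12, Kdr of 0.03 and Efemp1, a matrix protein that binds Timp3, of -0.23. Of 6 genes of the Reck and Wnt7 complex, 5 were listed and tested and 0 were called by either tool, with 0 at an unadjusted p-value under 0.05 by edgeR. Adgra2, the receptor that acts with Reck, had a log2 fold change of 0.17, and Wnt7a was not listed.

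Other genes of protease inhibitor families, listed together with the procollagen C-proteinase enhancers Pcolce and Pcolce2, gave a comparison for the TIMPs. The list was not limited to inhibitors of proteases that TIMPs do not block. Of these 24 genes 23 were listed and 18 tested, of which 13 were higher and 5 lower, with a median log2 fold change of 0.12. Without the 2 enhancers, 11 were higher and 5 lower, with a median of 0.08. DESeq2 called 1, Serpine2 (protease nexin-1, an inhibitor of thrombin and plasminogen activators), which was at 411 ± 71.7 FPKM in control and 690 ± 91 FPKM in SRF mice (SD, n = 3 each). The log2 fold change of Serpine2 was 0.67 (standard error 0.16), against 1.24 for Timp2. At an unadjusted p-value under 0.05 by edgeR, 3 of the 18 were higher and 0 lower. Among the 3 was A2m (log2 fold change 0.61, unadjusted p-value 0.0205), named after its value was seen and called by neither tool.

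**Figure D4:**
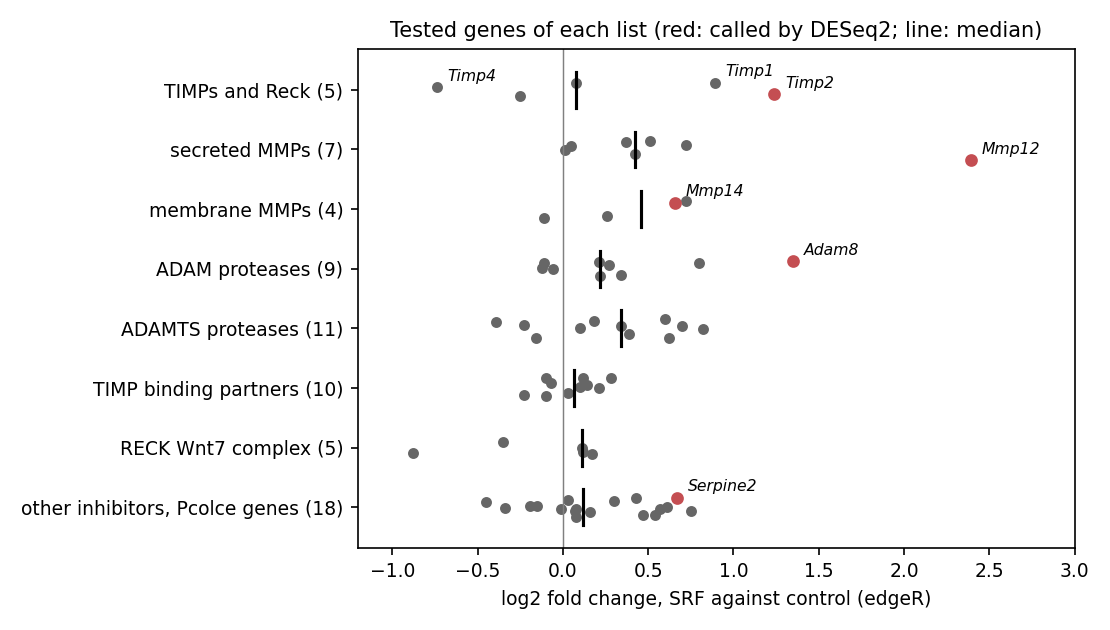
Log2 fold changes, SRF against control, from edgeR (horizontal axis) of the tested genes in each list (number in parentheses), 1 point per gene, with the list median as a black line and genes called by DESeq2 in red. Timp2 at 1.24 lies to the right of every other inhibitor drawn, and Mmp12 at 2.39 lies to the right of every protease.

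Cytokines and transcription factors known to act on TIMP genes, 22 in all, were higher in part and lower in part. Of these 21 were listed and 15 tested, 7 higher and 8 lower in SRF, with a median log2 fold change of -0.00. Jund, an AP-1 subunit, was called by DESeq2 (log2 fold change 1.63, adjusted p-value 2.8e-07) and not by edgeR (0.198). Other tested AP-1 genes had fitted log2 fold changes below 0. These were -1.32 for Fos (unadjusted p-value 0.0285 by edgeR), -0.85 for Fosl2 (0.111), -0.30 for Jun (0.283) and -0.22 for Junb (0.414). The groups overlapped for Fosl2, Jun and Junb. The cytokine gene Il1b was at -1.04 (unadjusted p-value 0.086 by edgeR), also with overlap. The immediate early gene Egr1 was at -0.93 (unadjusted p-value 0.0157 by edgeR). On the higher side, log2 fold changes were 0.41 for Stat3 (unadjusted p-value 0.0162 by edgeR), 0.27 for Osmr (0.0277) and 0.53 for Tgfb1 (0.0933). At an unadjusted p-value under 0.05 by edgeR, 3 of the 15 tested genes, Jund among them, were higher and 2 lower. The groups did not overlap in CPM for 4 genes with higher and 2 genes with lower SRF values. Apart from Jund, these genes were named after their values were seen, and neither tool called any of them. The promoters of the 2 members with the higher levels in SRF are shown because AP-1 and Sp1 sites are described as controlling TIMP genes. Each runs from 250 bases before to 50 bases after the start in RefSeq on GRCm38.p6, 5′ to 3′ on the gene's strand, with motif matches in capitals.
Timp1, chrX:20869916-20870215, forward strand: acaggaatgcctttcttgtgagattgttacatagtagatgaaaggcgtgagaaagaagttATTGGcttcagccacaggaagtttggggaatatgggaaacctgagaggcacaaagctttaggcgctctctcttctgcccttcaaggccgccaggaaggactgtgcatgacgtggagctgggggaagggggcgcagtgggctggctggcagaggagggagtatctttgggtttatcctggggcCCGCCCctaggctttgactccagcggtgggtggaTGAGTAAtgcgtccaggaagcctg
Timp2, chr11:118355362-118355661, reverse strand: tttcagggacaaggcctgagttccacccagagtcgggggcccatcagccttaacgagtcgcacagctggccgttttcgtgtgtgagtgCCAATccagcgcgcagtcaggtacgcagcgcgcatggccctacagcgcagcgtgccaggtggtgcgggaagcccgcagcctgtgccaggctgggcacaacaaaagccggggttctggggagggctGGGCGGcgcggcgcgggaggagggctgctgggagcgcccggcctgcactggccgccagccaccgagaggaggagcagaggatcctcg
Both strands were searched for TGANTCA (AP-1), TGAGTAA (an AP-1 variant), GGGCGG (the Sp1 box) and CCAAT. The Timp1 window held TGAGTAA, which 2.68% of 32851 promoters of this length hold, together with GGGCGG and CCAAT, each on the other strand. The Timp2 window held GGGCGG and CCAAT, which 35.7% and 37.4% of promoters hold. GGGCGG was also matched in the windows of Timp3 and Reck, CCAAT in that of Reck, and none of the 4 motifs in that of Timp4. TGANTCA, held by 7.81% of promoters, was in none of the 5 windows.

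The 3 tested genes whose library pattern was nearest to each member were found by the root mean square difference of log2 CPM, centred over the 6 libraries. For Timp2 these were Itgb5 (0.12), Vac14 (0.16) and Cd84 (0.17), and for Timp1 Arhgap22 (0.07), Cpa3 (0.08) and Avpr1a (0.10). For Timp3 they were Rchy1 (0.03), Mapk1ip1l (0.04) and Ccng2 (0.04). For Timp4 they were 3110001I22Rik (0.10), Ccl5 (0.11) and C330021F23Rik (0.11), and for Reck Fkbp14 (0.07), Tgfbr1 (0.08) and Hgf (0.08). The distances of the Timp2 neighbours were larger than those of the other members, and the points share the same 6 libraries.

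The 15 RPE markers had the largest sum of the marker lists in every library, at 16467 to 27800 FPKM. Markers of some other cells differed between the groups. The summed FPKM of 16 macrophage markers was 1246 to 1595 in control and 3060 to 4466 in SRF libraries, with 15 of 16 higher and 7 called by DESeq2, in the same libraries in which Timp1 and Timp2 were high. All 12 fibroblast markers had log2 fold changes above 0 (median 0.44), with 0 called by either tool, 1 at an unadjusted p-value under 0.05 by edgeR and sums that overlapped. The summed FPKM of 7 melanocyte markers was 2958 to 3766 in control and 3904 to 3992 in SRF libraries, with 5 of 7 higher and 0 called by either tool. Pmel, Mlana and Tyr are in this list and in the RPE list, so this sum does not set melanocytes apart from RPE. The summed FPKM of 12 lymphocyte and mast cell markers was 38.4 to 47.1 in control and 87.4 to 104 in SRF libraries. Of these markers 7 were tested and 7 were higher, with a median log2 fold change of 1.27 and 3 called by DESeq2. Cpa3, named above as near to Timp1, is in this list. The part of these cells in the TIMP values was not tested. Endothelial markers covered 923 to 1107 and 865 to 1215. Skeletal muscle markers covered 1104 to 1796 in control and 736 to 2688 in SRF libraries, with 8 of 8 higher. Ocular surface epithelium markers covered 82 to 626 and 174 to 295, with 8 of 8 lower. Lens markers covered 6.21 to 67.9 and 3.97 to 9.38, with 4 of 5 tested lower at an unadjusted p-value under 0.05 by edgeR. None of these was called by either tool, and their part in the TIMP values was not tested. Photoreceptor markers, which should be absent from RPE-choroid free of retina, were at 7015 in control mouse 1 and in SRF mouse 3 and at 459 to 985 in the other libraries. Without these 2 libraries the log2 fold change was 1.23 for Timp2 (adjusted p-value 0.00995 by edgeR, which then called it), 0.81 for Timp1, -0.61 for Timp4, -0.44 for Timp3 and -0.35 for Reck.

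Several members share their position with other genes, and whether counting used the strand is not given in the sources used here. Timp1, Timp3 and Timp4 lie within the synapsin genes Syn1, Syn3 and Syn2, on the opposite strand. Timp1 shares 0 exon bases with Syn1, Timp4 shares 90 with Syn2 and Timp3 shares 1733 with Syn3. Syn1 had 412 counts in control mouse 1 and 609 in SRF mouse 3 against 71 to 105 in the other libraries, an order unlike that of Timp1. Syn2 had 105 to 265 counts, in the range of Timp4, and a log2 fold change of 0.03, while Syn3 had 47 to 102 counts against at least 98095 for Timp3 in SRF libraries. Cep295nl lies within Timp2 on the same strand, shares 0 exon bases with it and had 4 to 20 counts. The Timp2 transcript also held a window of 200 nt with 81.5% GC, above that of 94.3% of tested genes. The 1138 tested genes with such a window of at least 80% GC had a median log2 fold change of 0.08, with 725 of them higher in SRF. DESeq2 called 23 of them higher (2.02%) and 1 lower, against 0.803% called higher among all tested genes. With a correction for GC content averaged over the whole transcript, which is 53.7% in Timp2, the Timp2 value was 1.19 by either tool. That correction did not use the GC of the 200 nt windows, so it cannot decide on an effect of such windows.

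**Figure D5:**
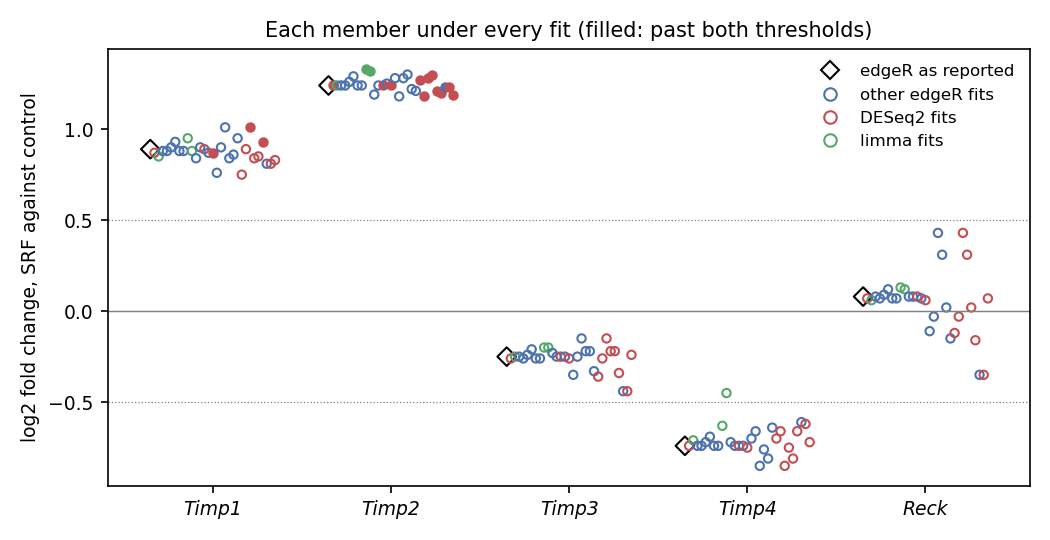
Log2 fold change of each member, SRF against control (vertical axis), under the reported edgeR fit (diamond) and 30 other fits (points, coloured by tool), with filled symbols where a fit passed both thresholds and dotted lines at 0.5 either way. Timp2 stays between 1.18 and 1.33 and is filled in 14 of the 30, whereas the points of Reck lie on both sides of 0.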

How the data were processed

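RNA-seq of RPE-choroid from 3 control and 3 SRF mice was analysed, with groups and mouse numbers from the titles of the samples. The authors filtered reads with FASTP 0.18.0 and counted reads per gene with StringTie, and deposited raw counts together with FPKM, which they scaled by transcript length and mapped reads. The aligner, genome build and strandedness are not given in the sources used here. Of 15663 identifiers, 15659 were found in GENCODE M21 (GRCm38). Totals were 13667310 to 24356023 counts per library, and 3 counts correspond to 0.123 to 0.22 CPM (counting error only).

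The 13454 genes above 50 counts in 2 or more libraries were tested with edgeR 4.0.16 in R 4.3.3 (TMM, quasi-likelihood test, Benjamini-Hochberg adjustment), with DESeq2 1.42.0 and limma 3.58.1 as alternatives. The median standard error was 0.19 (log2). Errors are SDs over mice. Sums, shares and ratios were compared by exact permutation tests, two-sided. The scripts were tested on simulated counts. The members and lists were chosen with earlier results of these data known. Genes named are the members, genes overlapping them, a fixed selection of proteases and partners, list genes called by either tool, and the 3 nearest patterns. Fits without the photoreceptor-rich libraries and a GC correction in DESeq2 were added after seeing the data. Sequences came from GENCODE M21 and the RefSeq promoter table.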

Additional observations from a re-analysis of the deposited data

How the results depend on the processing

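Over 30 other fits the log2 fold change kept its direction for Timp1 (0.75 to 1.01), Timp2 (1.18 to 1.33), Timp3 (-0.44 to -0.15) and Timp4 (-0.85 to -0.45). Timp2 passed both thresholds in 14 of the 30, with adjusted p-values by edgeR, DESeq2 or limma from 4.6e-23 to 0.856. It passed with DESeq2 (1.24), also with the photoreceptor covariate (1.24), the GC correction (1.19) and any mouse left out (1.18 to 1.3), and with limma on log2(FPKM + 0.1) (1.33) and log2(FPKM + 1) (1.32). Without the 2 photoreceptor-rich libraries it passed with both tools (1.23). Timp1 passed in 3 fits, all by DESeq2, with the photoreceptor covariate (0.87, adjusted p-value 0.0122) and without control mouse 3 (1.01, 0.0309) or SRF mouse 3 (0.93, 0.0407). Its range by DESeq2 with a mouse left out was 0.75 to 1.01. Timp3, Timp4 and Reck passed in none, although the adjusted p-value of Timp3 without the 2 photoreceptor-rich libraries was 0.0474 by DESeq2, at -0.44. Reck reversed in 8 fits, to -0.11 (edgeR) and -0.12 (DESeq2) without control mouse 1, -0.03 (both) without control mouse 2, -0.15 and -0.16 without SRF mouse 3, and -0.35 (both) without the photoreceptor-rich libraries. With a mouse left out Reck ranged from -0.16 to 0.43.

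The number of genes called was 0 by edgeR as reported and with DESeq2 size factors or GC offsets. It was 1 with limma-voom, the newer quasi-likelihood form, the upper quartile, library totals only, every listed gene, filterByExpr or the photoreceptor covariate, 2 with limma on FPKM under either pseudocount, and 0 to 5 with a mouse left out (5 without control mouse 1). DESeq2 called 153, with the photoreceptor covariate 260, with the GC correction 158 and with a mouse left out 67 (SRF mouse 2) to 343 (SRF mouse 3). Without the 2 photoreceptor-rich libraries edgeR called 153 and DESeq2 514. The causes were not tested.

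No pairing of the samples by mouse number is given in the sources used here. Deviations from the group means correlated at -0.48, 0.49 and -0.3 for numbers 1, 2 and 3. Whether samples of the same number were handled together cannot be told from these values. With the number as a replicate block edgeR called 0 genes and DESeq2 201. Timp2 was at 1.24 with the block in both tools, with an adjusted p-value of 0.302 by edgeR and 4.6e-23 by DESeq2. No other member was called with the block.

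The difference in summed TIMP FPKM was 10.5 as deposited, -51.3 from TMM-scaled counts over the longest transcript, and -90.5 to 119 with a mouse left out, within the spread between mice. The shares and ratios kept their direction in each of these settings. The difference in the log2 ratio of summed MMPs to summed TIMPs ran from 0.55 without control mouse 1 to 1.28 without control mouse 3.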
